A study of Rattus norvegicus with 12 samples.

Results

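The comparison described here is that of rat cardiac fibroblasts on soft gel with the same kind of cells on plastic at passage 6. It was made up of the 3 soft gel and the 3 plastic libraries of passage 6, taken by their labels, which are 6 of the 12 libraries in the series. All 6 came from wild-type fibroblasts of the ventricles of adult rats, grown in DMEM/F-12 with 20% fetal bovine serum. The plastic was tissue culture polystyrene, the rigid surface of ordinary culture dishes. The soft gel was a flat layer of poly(ethylene glycol) norbornene, a polymer that swells with water, onto which cells were moved at passage 6 for 48 h. A passage is one round of detaching cells and plating them again. Passage 6 cells in both groups therefore share a longer history in culture, which limits them as a model of fibroblasts in the heart.

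Cardiac fibroblasts build and remodel the collagen network of the heart. On rigid surfaces they spread, form actin stress fibres and turn into contractile myofibroblasts that secrete matrix. Signals from adhesions and actin tension reach the nucleus through factors such as YAP and the SRF cofactors, and soft surfaces lower that tension. The title of the series names activation, senescence and inflammatory secretion as the features whose dependence on stiffness was studied. The count table gives Ensembl identifiers with no gene names, and the reference tables used here pair none of its 32623 identifiers with a name. Genes are therefore described in groups defined by their values, with 2 single genes per direction given by identifier. No sequence could be matched to these genes, and the fibroblast label was not checked against marker genes.

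Polyadenylated RNA was sequenced as paired reads of 150 bases, and between 47834926 and 71464905 reads or fragments per library were counted in genes. A gene's level is given as CPM, its counts per 1000000 after scaling the libraries to each other by TMM, a method that assumes most genes do not change. A library had counts in 15947 to 16693 genes. A minimum on counts left 14021 genes for testing, and these held 99.98% of all counts at passage 6.

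Among the genes that varied most, the libraries differed more by replicate number than by substrate. Distances between libraries over all tested genes did not show this order. Differences of at least 2-fold occurred in 1802 to 1952 genes between libraries of equal number, and in 1551 to 2249 between libraries of the same substrate. The share of summed CPM that lay in different genes was 12.6% to 14.2% for equal numbers and 9.06% to 14.0% for the same substrate. In a principal component analysis of the 500 genes with the highest variance, 67.7% of that variance fell on component 1. It set the plastic and the soft gel library of replicate 3, at -58.7 and -51.0, apart from the other 4 libraries at 8.55 to 46.1. The second component held 18.0% and separated the substrates, with plastic between -28.8 and -13.0 and soft gel between 10.7 and 25.8. Each plastic library deviated from its group mean in the same genes as the soft gel library that carries its number, and the 2 libraries of a number are called a pair. Pair 3 stood apart mainly in genes at lower levels than elsewhere. In its libraries 216 genes lay at least 4-fold below all other 4 libraries and 5 genes at least 4-fold above them. For pair 1 these numbers were 7 and 5, and for pair 2 they were 9 and 4. Whether the replicates came from separate animals or cultures is not given, so the tests judge differences against the spread among libraries, which may be technical.

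On soft gel, 1134 genes were higher and 1091 lower than on plastic at passage 6. These calls come from edgeR's quasi-likelihood test with the pair as a term, at an adjusted p (Benjamini-Hochberg) under 0.05, and make up 15.9% of the 14021 genes tested, 8.09% in the upward and 7.78% in the downward direction. The median log2 fold change was 0.79 for the genes that rose and -0.74 for those that fell, against 0.01 for all genes tested. Most of the changes were modest. Among the genes that rose, 387 changed by under 1.5-fold, 309 by 1.5 to 2-fold, 305 by 2 to 4-fold and 133 by 4-fold or more. Among those that fell the same classes held 393, 356, 251 and 91 genes. A change of at least 2-fold was thus called for 780 genes, 5.56% of those tested, with 438 in the upward and 342 in the downward direction (3.12% and 2.44%). In 1563 of the 2225 called genes the CPM of the 3 soft gel libraries did not overlap those of the 3 plastic libraries, where 24.3% of all tested genes had no overlap. Another 761 genes had fitted differences of at least 2-fold without passing the test.

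On the TMM scale, genes that fell outnumbered those that rose only among genes at the highest levels. The tested genes were divided into 4 classes of equal size by mean CPM over the 6 libraries. In the class with the fewest counts, up to 3.61 CPM, 128 genes rose and 109 fell. In the next class, up to 19.2 CPM, 330 rose and 197 fell. In the class up to 55.8 CPM, 348 rose and 279 fell. In the class with the most counts 506 fell and 328 rose. When libraries were scaled by their total counts, this class held 313 lower and 813 higher genes. The other classes, from the lowest, then held 107 lower and 217 higher, 142 and 652, and 172 and 839. Rises thus outnumbered falls in every class on that scale. The share of genes called was 6.76%, 15.04%, 17.9% and 23.8% from the lowest to the highest class, and the median size of a called change on the log2 scale was 2.03, 0.99, 0.60 and 0.60. In the lowest class 229 of the 237 called genes differed by at least 2-fold. At low counts only large changes can pass the test, so these shares and sizes do not compare the response between classes. Over all genes of a class, called or not, the median size was 0.51, 0.22, 0.16 and 0.19, which also grows with the noise of low counts.

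**Figure D1:**
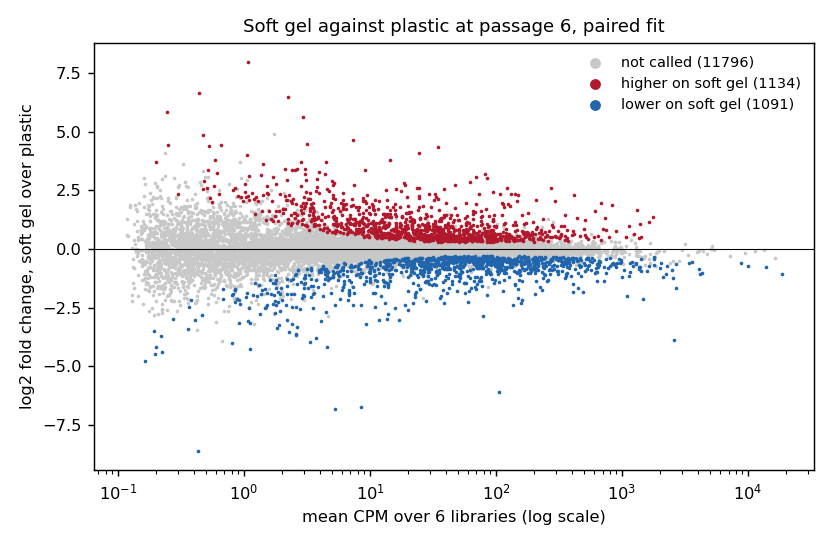
Each point is 1 of 14021 genes, with its mean CPM over the 6 libraries of passage 6 on a log axis and its log2 fold change of soft gel over plastic from the paired fit. The 1134 genes called higher are red, the 1091 called lower are blue and the rest are grey. Above 55.8 CPM there are 506 blue and 328 red points on this TMM scale, against 313 and 813 calls with scaling by library totals.

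On the TMM scale, the genes that fell held a large part of the summed CPM on plastic. The 1091 genes summed to 293979, 342373 and 272310 CPM in plastic libraries 1, 2 and 3. In soft gel libraries 1, 2 and 3 they summed to 178904, 195278 and 147369 CPM. Every soft gel library lay below every plastic one, and the mean moved from 302887 ± 35871 to 173850 ± 24351 CPM (SD, n = 3). The 1134 genes that rose summed to 56890, 56249 and 55188 CPM on plastic and to 100019, 100043 and 97344 CPM on soft gel. Across pairs the sum over the genes that rose varied little on either substrate. The genes were chosen by this difference, so the sums describe them and carry no test. The loss was concentrated in few genes. On the mean over libraries, 25 genes held 50% of the CPM lost and 60 genes held 50% of the CPM gained. The 10 genes with the largest losses accounted for 35.8% of the loss.

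In these 6 libraries, counts were less concentrated on soft gel. The 100 genes with the most counts in each library took 31.7%, 33.8% and 30.1% of the counts in plastic libraries 1, 2 and 3. In soft gel libraries 1, 2 and 3 they took 27.9%, 27.6% and 25.1%. The share was lower on soft gel in 3 of 3 pairs, with no overlap between the groups and a difference of means of -4.99 percentage points. A two-sided exact permutation test that leaves out the pairs gave p = 0.1, the smallest that 3 against 3 libraries allow. It could therefore not have fallen under 0.05. Of the 100 genes with the highest mean CPM over the 6 libraries, 39 were called lower, 12 of them by at least 2-fold, 9 were called higher and 52 were not called. With scaling by library totals 34 of these 100 were lower and 13 higher. The number of genes with at least 1 count was lower on soft gel in 1 of 3 pairs and overlapped between the groups (exact permutation p = 0.3).

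**Figure D2:**
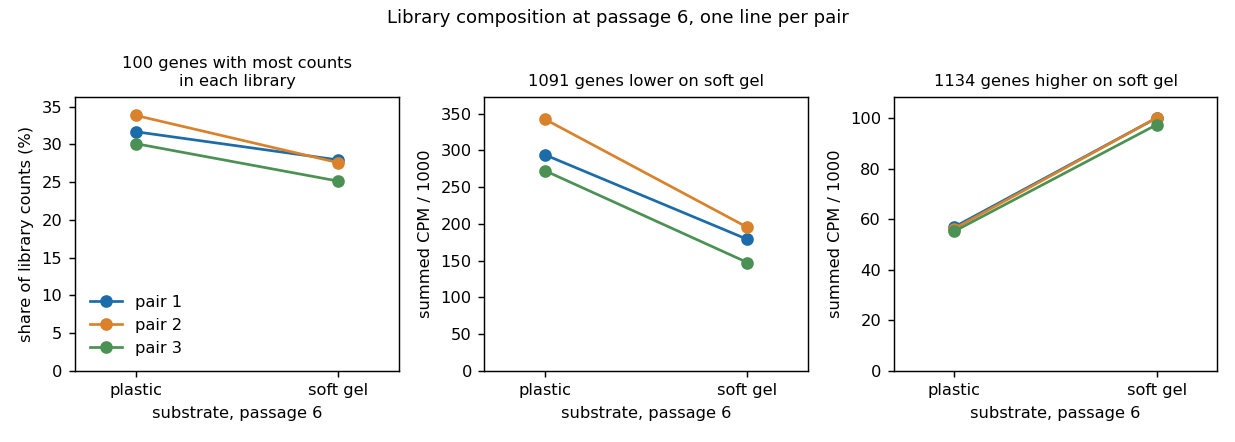
Each line joins the plastic and the soft gel library of 1 pair at passage 6, for the percent of library counts in the 100 genes with the most counts and for the summed CPM, divided by 1000, of the genes called lower and of those called higher. The share in the top 100 genes fell from between 30.1% and 33.8% to between 25.1% and 27.9%, and the 3 lines of each panel slope the same way.

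The balance between rising and falling genes depends on the scaling. With TMM, 51.0% of the called genes were higher on soft gel. When libraries were scaled by their total counts instead, the median of all tested genes moved to 0.17 on the log2 scale, and 2521 genes were higher and 734 lower, so that 77.5% were higher. At 2-fold or more that scaling gave 646 higher and 270 lower genes. The scaling factors themselves were 0.899 to 0.991 for plastic and 1.02 to 1.10 for soft gel, with no overlap. All directions given here are relative to the TMM scale. In bulk RNA, fewer cells of one state and less RNA per cell cannot be told apart.

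No gene switched fully between substrates. No tested gene had at least 1 CPM in all 3 libraries of one substrate and under 0.1 CPM in all 3 of the other. With 1 CPM as the only border, 33 genes were at or above it in the 3 soft gel libraries and below it in the 3 plastic ones, and 17 of these passed the test. In the other direction there were 34 genes, of which 22 passed. At least 1 CPM in all 6 libraries was measured for 11115 genes, 1943 of them called.

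Single genes were taken from those called, with the same sign in all pairs, no overlap between substrates and at least 5 CPM on average in the higher group. This left 696 genes higher and 723 lower, or 4.96% and 5.16% of the genes tested, with median log2 fold changes of 0.69 and -0.68. From each direction, the 2 genes that changed most follow.

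ENSRNOG00000019500 was close to undetected on plastic, at 0.129, 0 and 0.238 CPM in libraries 1, 2 and 3, and reached 6.26, 3.15 and 7.99 CPM on soft gel. Behind the plastic values were 8, 0 and 14 counts. All soft gel libraries lay above all plastic ones, and the fit gave 5.62 ± 0.49 as the log2 fold change (SE; edgeR adjusted p = 0.00276).

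ENSRNOG00000028043 stood at 0, 0.814 and 0.187 CPM on plastic and at 4.01, 11.5 and 2.32 CPM on soft gel. Pair 2 had the highest level on both substrates. The log2 fold change was 4.47 ± 0.72 (edgeR adjusted p = 0.0128), which became 3.74 without pair 1 and 5.15 without pair 2 and passed both times.

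ENSRNOG00000013916 showed the largest fall that met the rule. Its level was 7.46, 11.8 and 11.9 CPM on plastic against 0.199, 0.0856 and 0 CPM on soft gel, with 12, 5 and 0 counts behind the latter. The plastic libraries lay close together, at 10.4 ± 2.53 CPM (SD, n = 3), and the log2 fold change was -6.85 ± 0.73 (edgeR adjusted p = 0.00456). Without pair 1 it was -8.25 and without pair 3 it was -6.02, and it passed both times.

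ENSRNOG00000003171 had 45.5, 4.07 and 0.698 CPM on plastic and 0.364, 0.0684 and 0 CPM on soft gel. Its plastic level differed widely between pairs, while the order of the pairs was the same on both substrates. The log2 ratios within pairs 1, 2 and 3 were -6.84, -5.33 and -4.46, computed with a prior count of 2. The fitted log2 fold change was -6.75 ± 0.32 (edgeR adjusted p = 0.000902). Without the pair term ENSRNOG00000003171 did not pass (edgeR adjusted p = 0.147), nor did ENSRNOG00000019500 at 0.0589 or ENSRNOG00000028043 at 0.188, while ENSRNOG00000013916 passed at 0.0430.

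**Figure D3:**
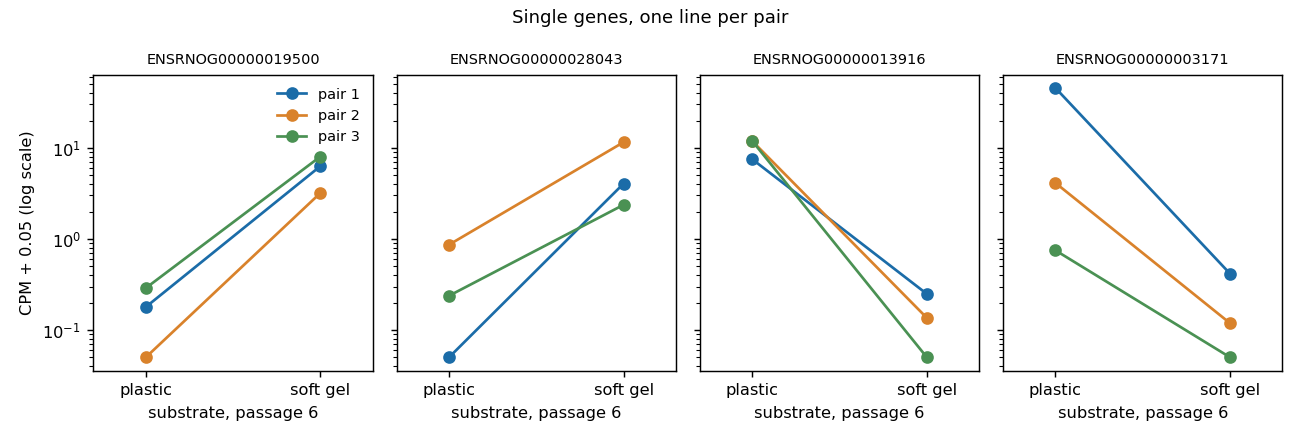
CPM plus 0.05 on a log axis for the 4 single genes, with 1 line per pair joining its plastic and soft gel library at passage 6. ENSRNOG00000019500 and ENSRNOG00000028043 rise in all 3 pairs, and ENSRNOG00000013916 and ENSRNOG00000003171 fall in all 3.

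The size of the substrate difference was alike in the 3 pairs. At least 2-fold differences between the soft gel and the plastic library were measured for 1811, 1802 and 1952 genes in pairs 1, 2 and 3. Pair 3 was the one in which more of them were lower than higher on soft gel, 1027 against 925. In pair 1 there were 833 lower and 978 higher, and in pair 2 there were 805 and 997. Among all 14021 genes, 52.3% had the same sign in 3 of 3 pairs. A difference of at least 2-fold in every pair was measured for 282 higher and 246 lower genes, of which 229 and 205 were called. Opposite differences of at least 2-fold in 2 pairs occurred in 232 genes, 1.65% of those tested. The pair against the others was pair 1 in 60 of them, pair 2 in 78 and pair 3 in 94. Across genes, the log2 ratios of pairs 1 and 2 had Pearson's r = 0.509, those of pairs 1 and 3 r = 0.547 and those of pairs 2 and 3 r = 0.527. Genes of one library share its preparation and scaling, so these r only describe the pairs.

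**Figure D4:**
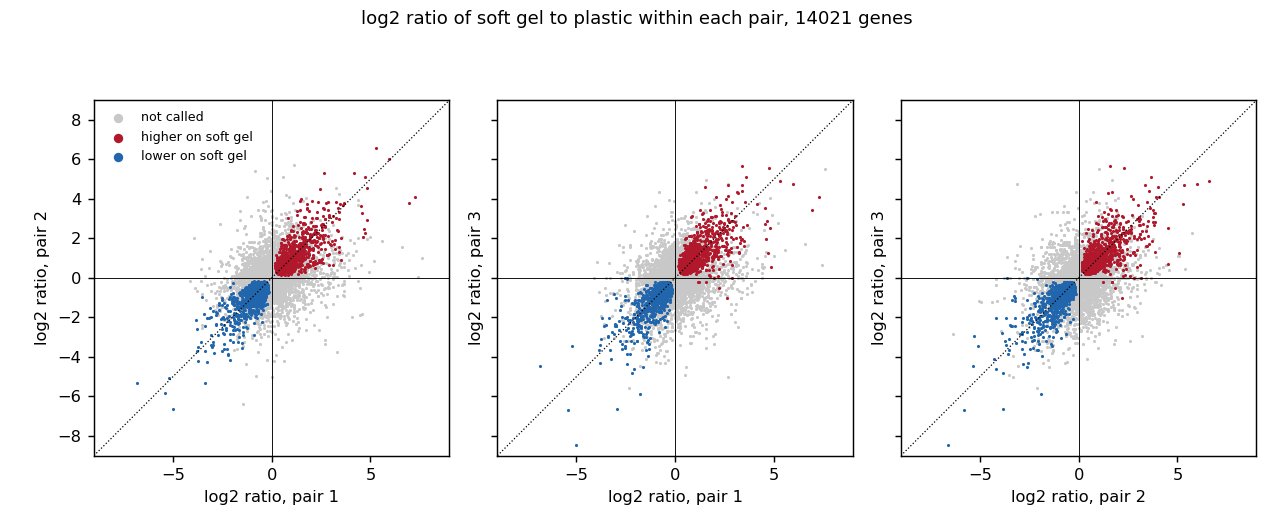
Each point is 1 of 14021 genes, with its log2 ratio of soft gel to plastic in one pair against that in another, and the dotted line marks equal ratios. Genes called higher (red) and lower (blue) lie mainly along the dotted line in all 3 panels, and the r across all genes is 0.509 to 0.547. The calls were made from these same 3 pairs and favour genes alike in them, so the place of the coloured points is no separate sign of agreement.

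Genes called from only 2 pairs were then looked up in the pair that had been left out. With pair 3 left out, 595 genes tested in all 6 libraries were called higher. In pair 3 itself 93.3% of these were higher on soft gel, with a median log2 ratio of 0.999 against a median of 1.19 in the other pairs. Of the 566 genes called lower without pair 3, 96.5% were lower in it, with medians of -0.97 and -0.99. Over all genes, called or not, the sign of the left-out pair 3 was the same for 73.1%. With pair 1 left out, 96.4% of 503 genes called higher and 95.9% of 518 called lower kept their direction in pair 1, against 71.5% over all genes. With pair 2 left out the shares were 96.0% of 771 and 90.4% of 816, against 69.1%. In all 6 cases the left-out pair had a smaller median change than the pairs in which the genes had been called. These smaller medians carry no weight by themselves. The genes were chosen in the other pairs, whose value is edgeR's fitted fold change. The ratio of the left-out pair uses a prior count of 2, which makes it smaller.

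The pairs held more of the variation than the substrates for most genes. The 3 pairs allow 2 independent differences and the substrates 1. When the variation of log2 CPM over the 6 libraries was divided between pairs, substrates and the rest, the pairs were the largest part in 7481 genes, or 53.4%. The substrate was the largest part in 4472 genes, or 31.9%. Summed over all genes tested, 61.0% of the variation lay between pairs, 26.7% between substrates and 12.3% in the rest. The biological coefficient of variation shared by all genes was 36.8% without the pair term and 16.4% with it. Without it the same test called 189 genes, 1.35% of those tested, and all 189 were among the 2225. The call count also depended on single pairs, with 1024 genes without pair 1 and 1166 without pair 3, of which 940 and 1062 were among the 2225.

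The same contrast at passage 3, made in 6 other libraries, gave 4020 called genes, 28.7% of 14006 tested, in a paired fit. The biological coefficient of variation was lower there, at 9.41%, so the count of calls is no measure of the size of the response. The median absolute log2 fold change was 0.21 at passage 3 and 0.23 at passage 6 over all genes tested. That median also grows with the spread, so it does not compare the size of the response either. Of the genes called at passage 6, 1476 were also called at passage 3 in the same direction, which is 66.3% of the passage 6 calls and 36.7% of the passage 3 calls. They were 67.5% of the 2186 called genes that were tested at both passages. Over all 13610 genes tested at both, 26.1% were called at passage 3 with the sign they had at passage 6. Among those not called at passage 6 it was 18.2%. Of the genes tested at both passages, 33 of 1071 that fell at passage 6 were called in the opposite direction at passage 3, or 3.08%, and 7 of 1115 that rose, or 0.628%. Over all 13610 genes tested at both, called or not at passage 6, that share was 3.12%.

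Over all genes tested at both passages the fold changes had the same sign in 71.2%, and over those not called at passage 6 in 66.9%. All 114 genes that rose at least 4-fold at passage 6 and were tested at passage 3 had a positive log2 fold change there, with a median of 1.56 against 2.43 at passage 6. Of 75 genes that fell at least 4-fold, 71 were also negative at passage 3, with medians of -1.35 and -2.48. The smaller values at passage 3 carry no weight by themselves, because the genes were chosen at passage 6. For genes chosen at passage 3 the order was the other one. The 1842 called higher there had medians of 0.48 at passage 3 and 0.44 at passage 6, and the 2135 called lower had -0.48 and -0.39.

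The difference between the passages was tested as an interaction over all 12 libraries with a term for each pair. It was called for 314 of 14660 genes, or 2.14%. Among the 2225 genes called at passage 6, 231 passed it, 146 of them lower on soft gel and 85 higher. In 221 of the 231 the interaction had the direction of the passage 6 change, by which these genes had been chosen. This fit uses a single spread per gene for both passages, although the spread was larger at passage 6. Of the 4 single genes, ENSRNOG00000003171 passed, with log2 fold changes of -3.75 ± 0.26 at passage 3 and -6.75 ± 0.32 at passage 6 and an interaction of -3.02 ± 0.45 (edgeR adjusted p = 0.0168). It missed the threshold without pair 1 of passage 6 (edgeR adjusted p = 0.133), in which it was highest on plastic, and without passage 3 pair 1 or 2 (edgeR adjusted p = 0.0572 and 0.0910). At passage 3 it had 3.31, 6.26 and 6.94 CPM on plastic and 0.376, 0.456 and 0.353 CPM on soft gel, so its plastic libraries were closer together there than at passage 6. ENSRNOG00000013916 fell on soft gel at passage 3 too, from 8.08, 12.5 and 7.26 CPM on plastic to 0.278, 0.827 and 0.225 CPM. The paired fit of passage 3 put its log2 fold change at -4.47 ± 0.23 (edgeR adjusted p = 1.33e-06). Its interaction of -2.34 ± 0.80 did not pass (edgeR adjusted p = 0.193), but without pair 1 of passage 6 it was -3.76 and passed (edgeR adjusted p = 0.0357). Without pair 3 of passage 6 it was -1.53 (edgeR adjusted p = 0.301). ENSRNOG00000019500 was under 1 CPM in all libraries of passage 3, on both substrates, and its interaction of 4.18 ± 1.14 did not pass either (edgeR adjusted p = 0.112). That value was 1.298 without passage 3 pair 1 (edgeR adjusted p = 0.894), and with no filter on low counts it was 4.19 and passed (edgeR adjusted p = 0.0419). ENSRNOG00000028043 was too low to be tested at passage 3 alone. Leaving out passage 3 pair 1, 2 or 3 reduced the 314 calls to 34, 43 or 33. Leaving out passage 6 pair 3 gave 145, and leaving out passage 6 pair 2 gave 476.

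**Figure D5:**
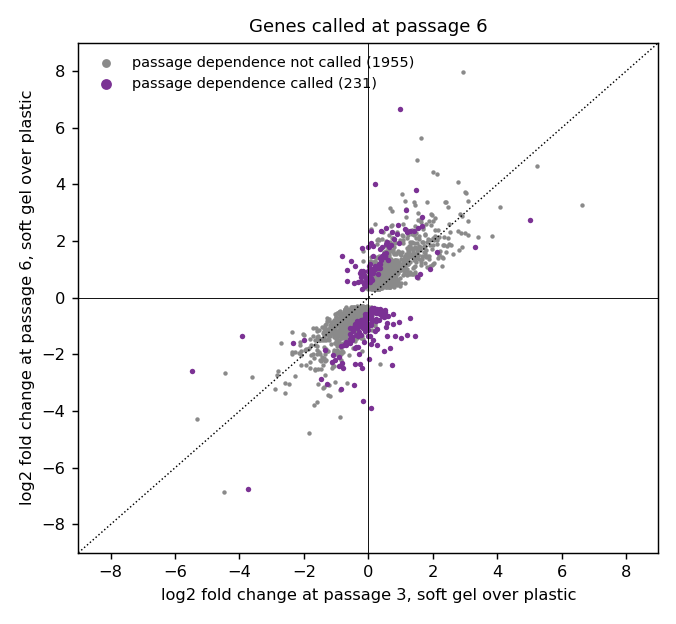
Each point is 1 of the 2186 genes called at passage 6 and tested at passage 3, with the log2 fold change of soft gel over plastic at passage 3 on the horizontal and at passage 6 on the vertical axis. The 231 genes that passed the test of passage dependence are purple, and 2040 of the 2186 points (93.3%) have the same sign on both axes, against 71.2% over all genes tested at both passages.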

How the data were processed

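The deposited table gives raw counts for each Ensembl rat gene in every library, which the authors did not normalize. Reads were handled with HISAT2 2.1.0, FastQC 0.11.5, Cuffnorm 2.2.1 and Cufflinks on build Rnor_6.0, per the submitters' processing notes. How reads were counted, with which strand setting and annotation release, is not given in the sources used here, so reads of overlapping or near-identical genes may be counted for the wrong gene.

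Groups and replicate numbers came from the labels. Counts of the 6 libraries of passage 6 were filtered with filterByExpr by group (minimum count 10, minimum total 15), scaled by TMM and tested with edgeR 4.0.16 (R 4.3.3) by glmQLFit and glmQLFTest, with the replicate number and the substrate as terms. P-values were adjusted by Benjamini-Hochberg over all genes tested, with a threshold of 0.05. A standard error is the fold change divided by the root of its F value. Log2 ratios and principal components used log2 CPM with a prior count of 2. The passage dependence was fitted over 12 libraries with a term for each pair. DESeq2 1.42.0 and limma 3.58.1 were alternatives. The fits were also run on simulated counts in which all genes had the same spread and changes were placed only in genes with higher counts. That run says nothing of low-count genes or of unequal spread between genes or passages. Figures used Python 3.11.15 and matplotlib 3.10.9.

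The labels do not say that equal numbers share a source. The comparison was set with the replicate number as the pair. At passage 6, the deviations of plastic and soft gel libraries from their group means correlated across genes at 0.549, 0.608 and 0.757 for equal numbers. For unequal numbers the values were -0.542 to 0.0586. Deviations within a group cancel out, so high values for equal numbers lower the others, and part of this contrast is built in. The chi-square statistic per degree of freedom between replicates of a group was 162 to 346, over genes with at least 20 counts in the 2 libraries, so none was treated as a duplicate. Reads without molecular identifiers are not independent molecules.

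The comparison, the rule for single genes and the gene lists were chosen with earlier results of these data known. The rule took genes past the threshold, of the same sign in all pairs, without overlap and with at least 5 CPM on average in the higher group, by size of change. It asked for named genes and, where no names could be had, for 2 identifiers per direction. The gene and marker lists could not be followed, since 0 of 32623 identifiers matched RefSeq's table for GRCr8, whose Ensembl column is empty.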

Additional observations from a re-analysis of the deposited data

Results flagged for a closer look

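The test of the interaction with pairs called 314 of 14660 genes, or 2.14%, as differing between the passages in their soft gel response (edgeR adjusted p under 0.05). Leaving out passage 3 pair 1, 2 or 3 reduced the calls to 34, 43 or 33. Leaving out pair 1, 2 or 3 of the later passage gave 459, 476 or 145. The fit uses a single spread per gene for both passages, although the spread was larger at the later one. How many of the 314 calls rest on that was not tested. Without pairs in the model edgeR called 0 genes, with 1044 at an unadjusted p under 0.05.

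ENSRNOG00000003171 was among the 314, with a difference between the passages of -3.02 on the log2 scale. It passed under 8 of 12 alternatives, with adjusted p between 2.58e-05 and 0.832. On plastic at passage 6 it stood at 45.5 CPM in library 1 against 4.07 and 0.698 CPM in libraries 2 and 3, and without that pair the difference was -2.41 (edgeR adjusted p = 0.133).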

How the results depend on the processing

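Calls at passage 6 depended on the pairing and the number of libraries more than on the tool. Without the replicate block, 189 genes differed, 100 higher and 89 lower, and 0 showed passage dependence. With 12 libraries in the fit, 3650 differed, 1805 higher and 1845 lower, and 2214 of the 2225 genes were among them. Leaving out 1 pair of passage 6 gave 1024 to 1589 genes, 504 to 771 higher and 520 to 818 lower. Passage dependence ran from 33 to 476 genes over the pairs left out at either passage, those of passage 3 added after the data were seen, and DESeq2 called 719. Scaling by library totals, also added then, gave 2521 genes higher. DESeq2's size factors, DESeq2's test, limma-voom and no filter kept the counts at passage 6 within 1.5 times. The 4 single genes kept their direction under all 10 alternatives, and 3 of them missed the threshold only without the block, with adjusted p up to 0.188. The share of genes called was 6.76% in the class with the fewest counts and 23.8% in that with the most. At low counts only large changes can pass, so these shares do not compare the response between the classes.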
